A study of Mus musculus with 4 samples.

Results

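Genes that mark primordial germ cells were followed through 4 libraries of mouse embryos with and without Ddx6. The 9 genes were Prdm1, Prdm14, Tfap2c, Dppa3, Nanos3, Dnd1, Ifitm1, Ifitm3 and Kit, chosen by symbol from the 24421 genes of the count table, and all 9 had a row. Primordial germ cells are the embryonic founders of eggs and sperm. In the mouse they arise from proximal epiblast cells that receive BMP signals from the adjoining extraembryonic ectoderm, and Prdm1, Prdm14 and Tfap2c are the transcription factors at the head of the program. The founders gather at the base of the allantois and then migrate through the hindgut to the gonads. Several of these genes also work elsewhere in the embryo, since Prdm1 is used in visceral endoderm, Tfap2c in trophoblast and surface ectoderm, and Kit in blood progenitors.

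All 4 libraries were made from whole embryos of the ICR strain. The E7.5 WT group held 1 wild-type library at embryonic day 7.5, and the E8.5 WT group held 1 wild-type library at embryonic day 8.5. The KO group held 2 libraries of Ddx6 -/- embryos at embryonic day 8.5, named KO1 and KO2 here. Ddx6 encodes an RNA helicase that works in mRNA decay and in silencing by microRNAs (miRNAs), and the comparison with a BMP-dependent lineage bears on the study's question of how the loss of DDX6 affects BMP signaling. The KO libraries were pools, as the study describes them: KO1 mixed embryos with and without head folds, whereas the embryos of KO2 were all at a stage before head folds. The deleted allele came from a floxed exon removed with CAG-Cre, which acts in every tissue, so the embryos lacked the exon in germ cell precursors and in all neighbouring tissues alike. Extraembryonic tissue or yolk sac was taken for genotyping, and how much of these tissues stayed in each library is not given in the sources used here.

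Between 8198402 (KO1) and 12562640 (E8.5 WT) reads were counted in a library, with 16511 to 17112 genes detected. Wherever 4 values are listed with no library named, they run from the earlier to the later wild-type stage and then from KO1 to KO2. Ddx6 itself had 2943, 5715, 706 and 929 reads, a level 5.53-fold lower in KO1 and 6.10-fold lower in KO2 than at the same age in wild type. Levels below are CPM, the reads of a gene relative to the library total after scaling by TMM factors, and a difference is a log2 change of CPM with a prior count of 2 added. Intervals are 95% intervals of counting error for 1 library against 1 library. Each WT stage held 1 library, so any p-value measures only the spread between the KO libraries. Labels do not say that the libraries came from separate litters. In whole embryos, fewer cells of a type and less RNA per cell cannot be told apart.

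The members that mark germ cells most narrowly were near the limit of detection in every library. Prdm14 (chr1:13113457-13127163, minus strand, GRCm38) encodes a transcriptional regulator needed for germ cell identity, and it had 10, 3, 2 and 3 reads. Dppa3 (chr6:122626410-122630272, plus strand), also called Stella, is a classical marker of the founder cells and had 1, 1, 0 and 2 reads. Nanos3 (chr8:84173731-84185217, minus strand) encodes an RNA-binding protein that keeps migrating germ cells alive, and it had 0, 1, 3 and 3 reads. No library stood apart for Dppa3 or Nanos3, whose counts never exceeded 3. A count of 3 reads was taken as the floor and corresponded to 0.244 CPM in the deepest library, E8.5 WT, and to 0.357 CPM in the shallowest, KO1. The 0 reads of Nanos3 in E7.5 WT allowed a level of up to 0.310 CPM, and the 0 reads of Dppa3 in KO1 allowed up to 0.439 CPM.

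Summed, Prdm14, Dppa3 and Nanos3 had 11 reads (exact Poisson interval 5.49 to 19.7), 5 (1.62 to 11.7), 5 (1.62 to 11.7) and 8 (3.45 to 15.8). The grouping of these 3 genes was made after their values were seen. Scaled for depth, the sums were 0.925 (0.462 to 1.655), 0.407 (0.132 to 0.949), 0.595 (0.193 to 1.389) and 0.6565 CPM (0.283 to 1.294). The intervals of all 4 libraries overlapped in reads and in CPM. Overlap is not a test of a difference, and at this depth none in germ cell content could be read from these genes. Set against the 10 reads of Prdm14 in E7.5 WT, the 2 reads in KO1 gave an interval of the log2 change of -5.05 to 0.41, the 3 in KO2 one of -4.27 to 0.19, and the 3 in E8.5 WT one of -4.28 to 0.17. All 3 intervals include 0. Dppa3 shared 17.7% of its 50-base words with other genes, most of them with the pseudogene Dppa3-ps, so even its few reads may be split.

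**Figure D1:**
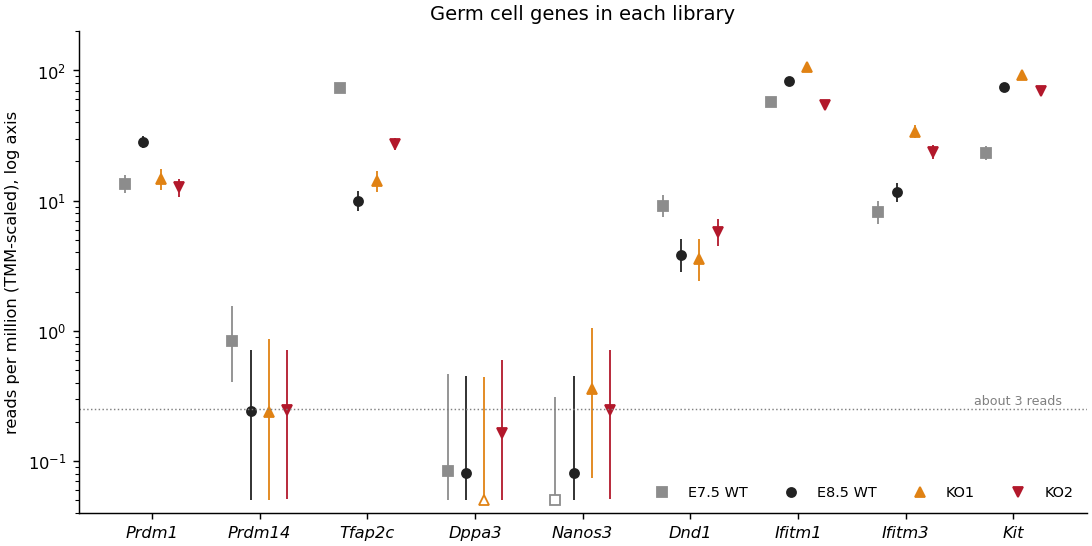
Level of each germ cell gene in each library in TMM-scaled CPM on a log axis, with bars for the exact 95% Poisson interval of the reads; an open symbol at the foot stands for 0 reads, and bars are cut at the foot of the axis. Prdm14, Dppa3 and Nanos3 lie at or near the dotted line of about 3 reads, Prdm1 is highest in E8.5 WT, Tfap2c is highest in E7.5 WT, and Ifitm3 is higher in both KO libraries than in both WT libraries.

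Later germ cell genes were sparse too. Of 14 genes that act after the founders have settled, such as Ddx4 (Vasa) and Dazl, 6 passed the filter of at least 10 reads in at least 1 library. Dazl had 1, 0, 0 and 1 reads. Ddx4, an RNA helicase of the germ line, had 93, 45, 15 and 27 reads. Piwil2, a partner of small germ line RNAs, had 41, 9, 4 and 11 reads. Both were highest in E7.5 WT and were lower by more than 1 on the log2 scale in both KO libraries against that stage. E8.5 WT was lower than E7.5 WT by that measure as well, at -1.06 for Ddx4 and -1.99 for Piwil2. Stk31, with 12, 6, 1 and 1 reads, was lower against both stages by that measure, but it passed the filter through E7.5 WT alone, so a lower KO level was set by the filter. Sycp3, a protein of the meiotic chromosome axis, had 29, 27, 18 and 136 reads and was 5.08-fold above E8.5 WT and 4.58-fold above E7.5 WT in KO2, with KO1 close to both. Tdrd1, a Tudor protein of the germ line, had 45, 21, 23 and 46 reads and was past the threshold against E8.5 WT in KO2 (log2 change 1.07) but not in KO1 (0.63). None of the 6 genes was higher by more than 1 in KO1 and KO2 alike, against either WT stage. Over all genes that share was 3.44% against E8.5 WT and 6.91% against E7.5 WT. Lower by more than 1 in both KO libraries were 1.79% of all genes against E8.5 WT and 2.70% against E7.5 WT.

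Prdm1 (chr10:44437177-44528501, minus strand) encodes BLIMP1, the repressor of the somatic program in founder cells. It had 161 reads at E7.5 and 345 at E8.5 in wild type, with 123 for KO1 and 154 for KO2, or 13.5, 28.1, 14.7 and 12.6 CPM. E8.5 WT stood above the other 3 libraries, which lay close together. Against E8.5 WT, KO1 had a log2 change of -0.93 (-1.25 to -0.64) and KO2 one of -1.14 (-1.44 to -0.87), with a mean of -1.04 ± 0.15 (SD, n = 2). Prdm1 thus sat at the threshold of -1, short of it in KO1 and past it in KO2. Against E7.5 WT the changes were 0.11 (-0.24 to 0.46) and -0.10 (-0.43 to 0.23), so neither KO library differed from the earlier stage beyond counting error. Between the WT stages Prdm1 was 2.07-fold higher at E8.5 (log2 change 1.04, 0.78 to 1.33).

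Markers of visceral endoderm, a tissue that also expresses Prdm1, were lower in sum in the KO libraries. The summed level of the 7 markers was 6718, 7056, 4157 and 3956 CPM, and no marker was at 0 in any library. For 6 of the 7 both KO libraries lay below E8.5 WT, the exception being Amn, a subunit of the endocytic receptor, with log2 changes of -0.18 and 0.19. Apoa1, an apolipoprotein, was 3.54-fold and 3.34-fold lower than in E8.5 WT, and Rbp4, a carrier of retinol, was also lower past the threshold in both. The part of this tissue in the Prdm1 values was not tested. Nearest to Prdm1 in pattern over the 4 libraries was Apob, another marker on that list, at a distance of 0.150 in centred log2 CPM. The next were Fam102b (0.151) and Peak1 (0.200). Apob had 20617, 38222, 14125 and 18530 reads, with a lower level at E7.5 than at E8.5 as for Prdm1 (log2 change between the stages 0.84). The other markers did not share that difference, with changes between the stages of 0.07 for Afp, -0.30 for Ttr and -0.35 for Rbp4. Cubn changed by -0.16, Apoa1 by -0.90 and Amn by -1.09.

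Tfap2c (chr2:172549593-172558622, plus strand) encodes AP-2 gamma, which acts downstream of Prdm1 in founder cells and is a main regulator of trophoblast. Wild type had 879 reads at E7.5 and 123 at E8.5, KO1 had 118 and KO2 had 334, or 73.9, 10, 14.1 and 27.4 CPM. E7.5 WT was the highest library by a wide margin, and KO2 came next. The level in E8.5 WT was 7.38-fold lower than in E7.5 WT (log2 change -2.86, -3.17 to -2.61). Against E7.5 WT both KO libraries were also lower, by 5.26-fold in KO1 (log2 change -2.38) and 2.70-fold in KO2 (-1.43). KO1 exceeded E8.5 WT by 0.48 (0.11 to 0.87) and KO2 by 1.44 (1.15 to 1.76). The mean of 0.96 ± 0.68 (SD, n = 2) covers a difference between the KO libraries of 0.96 (0.66 to 1.28).

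Trophoblast and maternal markers also differed between the libraries. The 8 trophoblast markers summed to 99.5, 1.30, 2.62 and 461 CPM, with 4, 4, 3 and 2 of the markers at 0. Their makeup differed between E7.5 WT and KO2. Elf5, a factor of extraembryonic ectoderm, had 795, 3, 3 and 10 reads, whereas Prl3d1, a hormone of trophoblast giant cells, had 27, 1, 3 and 4156 reads. The 4 markers of maternal decidua summed to 138, 12.4, 23.9 and 130 CPM, led by Prl8a2 with 1318, 26, 64 and 1433 reads. Of the other decidua markers Prl3c1 had 135, 1, 0 and 25 reads, whereas Dcn (13, 23, 19 and 20 reads) and Cryab (178, 102, 118 and 108 reads) did not follow that order. Both sums were higher in E7.5 WT and KO2 than in E8.5 WT and KO1, the libraries in which Tfap2c was lowest, and their part in the Tfap2c values was not tested. The genes nearest to Tfap2c in pattern were Bin2 (distance 0.269), C77370 (0.295) and Des (0.404). Its paralog Tfap2a did not share its order. Tfap2a, which patterns surface ectoderm and neural crest, had 157, 451, 389 and 521 reads, and its lowest library was the one where Tfap2c was highest.

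Dnd1 (chr18:36763671-36766214, minus strand) encodes an RNA-binding protein that protects germ cell mRNAs from miRNAs. Its reads were 109 and 47 at the wild-type stages, 30 for KO1 and 70 for KO2, or 9.16, 3.82, 3.57 and 5.74 CPM. As for Tfap2c, E7.5 WT was highest and KO2 came next. KO1 differed from E8.5 WT by -0.09 on the log2 scale (-0.81 to 0.59) and KO2 by 0.57 (0.03 to 1.15), with a mean of 0.24 ± 0.47 (SD, n = 2). Against E7.5 WT the level was lower past the threshold in KO1 (-1.32) and E8.5 WT (-1.22, -1.79 to -0.75), and by less in KO2 (-0.66). Dnd1 overlaps Wdr55 on the opposite strand, a gene with 2751 reads over the 4 libraries. Counting was strand-specific, and 6.85% of the 50-base words of Dnd1 were shared with other genes.

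Ifitm1 and Ifitm3 encode small membrane proteins of the interferon-induced family, known in germ cells as the fragilis genes, and lie near each other on chromosome 7. Ifitm3 (chr7:141009586-141010770, minus strand) had 97 reads at E7.5 and 143 at E8.5 in wild type, against 285 for KO1 and 289 for KO2, or 8.16, 11.6, 33.9 and 23.7 CPM. Both KO libraries lay above both WT libraries. The log2 change of KO1 from E8.5 WT was 1.53 (1.25 to 1.84) and that of KO2 was 1.02 (0.73 to 1.33), a 2.92-fold and a 2.04-fold higher level and a mean of 1.27 ± 0.36 (SD, n = 2). Against E7.5 WT the changes were 2.03 (1.72 to 2.40) and 1.52 (1.20 to 1.89). The change between the WT stages was 0.50 (0.13 to 0.90), smaller than either. Ifitm3 was the single member past the threshold in both KO libraries against both WT stages, a pattern seen in 108 of the 14393 genes that passed the filter (0.750%).

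Ifitm1 (chr7:140967221-140969825, plus strand) did not follow Ifitm3. It had 684, 1015, 895 and 657 reads, or 57.5, 82.6, 107 and 53.9 CPM, so that KO1 was the highest library and KO2 the lowest. Its log2 changes against E8.5 WT pointed in opposite directions, at 0.37 (0.24 to 0.50) in KO1 and -0.61 (-0.76 to -0.47) in KO2, with a mean of -0.12 ± 0.69 (SD, n = 2). KO2 was 1.98-fold lower than KO1. Ifitm2, the paralog next to them in the cluster, had 1297, 1589, 1179 and 1311 reads, with log2 changes of 0.12 and -0.26 against E8.5 WT. For Ifitm3 both KO libraries thus exceeded both WT libraries by more than the threshold, whereas for Ifitm1 and Ifitm2 KO2 lay below E8.5 WT. Sequence sharing was modest: 10% of the 50-base words of Ifitm3 and 5.02% of those of Ifitm1 occur in other genes, most often in Gm7676.

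Ifitm genes respond to interferon, so other interferon-stimulated genes were read beside them. The 10 genes summed to 65.2, 33.4, 50 and 71.4 CPM, and 6 passed the filter. Set against E8.5 WT, their median log2 change was 0.61 for KO1 and 1.18 for KO2, beside -0.01 and 0.00 over all genes tested. The medians against E7.5 WT were -0.41 and 0.20, beside 0.02 and 0.07. All of these medians cover the 6 genes that passed the filter. Usp18 (7, 9, 8 and 19 reads) passed through KO2 alone and Irf7 (19, 2, 3 and 9 reads) through E7.5 WT alone. Oas1a was also under 10 reads in E8.5 WT, so the filter set part of these medians. Bst2, an antiviral membrane protein, had 368, 131, 134 and 385 reads. Oas1a, with 21, 3, 7 and 31 reads, was the 1 gene of the list past the threshold in both KO libraries against E8.5 WT, where its reads were at the floor. In levels, Bst2 was at 30.9, 10.7, 16 and 31.6 CPM, so that E7.5 WT lay close to the higher KO library, whereas for Ifitm3 it was the lowest of all. The 7 markers of uterine natural killer cells, an immune cell of the decidua, summed to 2.86, 0.326, 2.98 and 18.9 CPM, with none at 0 in KO2. KO2 held 5 to 53 reads of each, whereas E8.5 WT held 0 or 1 and KO1 at most 7, so that KO1 and E8.5 WT could hardly be compared. The part of maternal immune cells or interferon in the Ifitm3 values was not tested.

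The promoters of these genes were searched for the interferon-stimulated response element, the site that interferon-activated factors bind, a search chosen after the Ifitm3 values were seen. The motif was GAAA, any 2 bases and GAAA again, on either strand, and the window ran from 250 bases before to 50 bases after the RefSeq start (GRCm38.p6). A window was held for Prdm1, Nanos3, Ifitm1, Ifitm3 and Kit. For Ifitm1 the window ran from chr7:140967826 to 140968125, whereas the annotated gene begins upstream at 140967221, so that end was not searched. The windows of Prdm1 and Nanos3 also lay within the gene and did not cover its furthest upstream end. Ifitm3 had 2 matches and the other 4 had none, whereas 1131 of 32851 windows of all genes (3.44%) and 7 of the 8 interferon-stimulated genes with a window had at least 1. The Ifitm3 matches lay between bases 3 and 29 after the start, in the first exon of the gene. That stretch is shown because the window of Ifitm1, the member that did not follow Ifitm3, had no match, with the matches in capitals (chr7:141010715-141010744, minus strand).
Ifitm3: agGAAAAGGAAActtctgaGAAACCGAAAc
A match is a description of letters and does not show that a factor was bound in these embryos.

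Kit (chr5:75574916-75656722, plus strand) encodes the receptor for stem cell factor, which germ cells need to survive and migrate, and it also marks blood progenitors. It had 278 reads at E7.5 and 920 at E8.5 in wild type, and 772 and 850 reads without Ddx6, or 23.4, 74.9, 91.9 and 69.8 CPM. E7.5 WT stood below the other 3 libraries. Kit was 3.20-fold higher in E8.5 WT than in E7.5 WT (log2 change 1.67, 1.48 to 1.88). The KO libraries had reached that range, at 3.93-fold and 2.98-fold above E7.5 WT, and their log2 changes against E8.5 WT were 0.30 (0.16 to 0.44) and -0.10 (-0.24 to 0.03), with a mean of 0.10 ± 0.28 (SD, n = 2).

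The ligands of germ cell migration were measured in the same libraries. Kitl, the ligand of Kit, had 224, 916, 754 and 577 reads, with the lowest level also in E7.5 WT, and was 4.77-fold (KO1) and 2.51-fold (KO2) higher without Ddx6 than at that stage. Against E8.5 WT its log2 changes were 0.27 and -0.65. Cxcl12, which guides migrating germ cells through the receptor Cxcr4, had 683, 830, 536 and 1294 reads, and Cxcr4 had 172, 284, 201 and 419. KO2 was the highest library for both. The 7 endothelial and blood progenitor markers summed to 148, 398, 366 and 272 CPM, none at 0, so that E7.5 WT was again the lowest in sum. The single markers did not all keep that order. Kdr, the receptor of vascular precursors, had 669, 2259, 1491 and 1255 reads. Tek, an endothelial receptor, had 73, 629, 590 and 112 reads, and so separated KO2 from KO1 more than Kit did. Runx1 and Tal1, transcription factors of blood progenitors, did not follow Kit, since Runx1 was highest in E7.5 WT (34.2, 17.1, 10.7 and 15.8 CPM) and Tal1 was lowest in KO2 (34.6, 40.4, 35.5 and 18.5 CPM). Tie1, another endothelial receptor, was lowest in KO2 as well (2.86, 24.7, 16.2 and 1.72 CPM). The 7 primitive erythroid markers did not follow Kit, at 31.4, 250 and then 2.38 and 5.17 CPM in the KO libraries, where 6 of them fell short of E8.5 WT by more than the threshold in both. The part of blood and vascular cells in the Kit values was not tested. The genes nearest to Kit in pattern were Ank3 (distance 0.0686), Cntfr (0.147) and Plag1 (0.149).

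**Figure D2:**
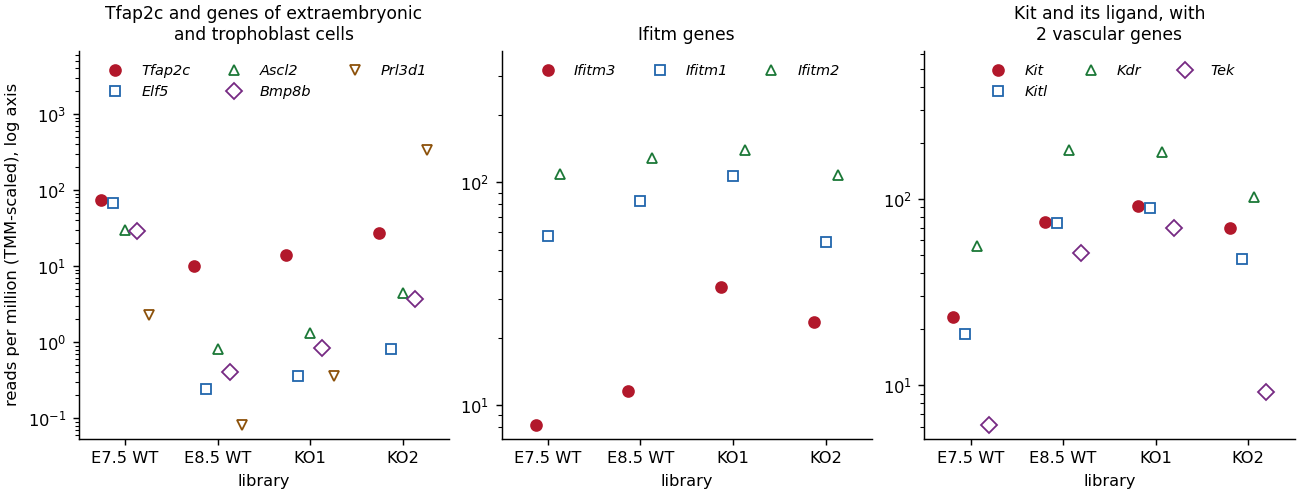
Levels in CPM, scaled by TMM, on log axes in each of the 4 libraries, with points set slightly apart so that they do not hide each other. On the left, Tfap2c is highest in E7.5 WT with Elf5, Ascl2 and Bmp8b, and Prl3d1 is highest in KO2; in the middle, Ifitm3 is higher in both KO libraries than in both WT libraries and Ifitm1 and Ifitm2 are not; on the right, Kit and Kitl are lowest in E7.5 WT.

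The comparison with E8.5 WT asked how the KO embryos differed from their age-matched controls. By the rule of a log2 change past 1 in both KO libraries, 1 member was higher, Ifitm3, against 3.44% of the 14393 genes tested, and 0 were lower, against 1.79%. Of the 9 members 7 passed the filter, and Prdm14 did so through E7.5 WT alone. In KO2 alone Tfap2c and Ifitm3 were higher (9.41% of genes) and Prdm1 was lower (5.91%), whereas in KO1 alone Ifitm3 was higher (4.97%) and no member was lower (3.31%). The members nearest the threshold were Ifitm3 at 1.02 in KO2, just past it, and Prdm1 at -0.93 in KO1, just short of it. The median log2 change of the 7 members was 0.30 for KO1 and 0.01 for KO2, beside -0.01 and 0.00 over all genes.

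The edgeR quasi-likelihood test with Benjamini-Hochberg adjustment over all genes called 0 genes against E8.5 WT in either direction, with 626 higher (4.35%) and 426 lower (2.96%) at an unadjusted p under 0.05. Its smallest adjusted p was 0.0839, for Hbb-bh1, a globin. Ifitm3 (log2 change 1.31, SE 0.34, unadjusted p 0.0183) and Prdm1 (-1.04, SE 0.25, unadjusted p 0.0133) were among the genes under 0.05 before adjustment, and edgeR gave both an adjusted p of 0.666. Tfap2c had a log2 change of 1.06 (SE 0.48) and an edgeR adjusted p of 0.666. For Kit, Dnd1 and Ifitm1 the edgeR adjusted p was 0.885, 0.868 and 0.982. DESeq2 called 14 genes higher (0.0973%) and 17 lower (0.118%), none of them a member, and its adjusted p was 1.0 for all 7. Measured against the spread between the KO libraries, no member thus passed the adjusted threshold in this contrast.

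The comparison with E7.5 WT set the KO embryos against an earlier wild-type stage, since the study describes them as delayed. Both KO libraries were past the threshold for Ifitm3 and Kit, which were higher (6.91% of genes), and for Prdm14 and Tfap2c, which were lower (2.70%). Prdm14 had passed the filter through its 10 reads in E7.5 WT, so a lower level elsewhere was set by the filter. These were also the members called in KO2 alone (10.9% of genes higher, 4.06% lower), and in KO1 alone (13.2% higher, 7.45% lower) Dnd1 was lower as well. The edgeR test again called 0 genes, with 1987 higher (13.8%) and 1524 lower (10.6%) at an unadjusted p under 0.05 and a smallest adjusted p of 0.128. Kit had a log2 change of 1.79 (SE 0.24, edgeR unadjusted p 0.00183, adjusted p 0.128). Ifitm3 had 1.82 (SE 0.35, edgeR adjusted p 0.131), and Tfap2c had -1.83 (SE 0.43, edgeR adjusted p 0.142). Of 11323 genes with an adjusted p, DESeq2 called 418 higher (3.69%) and 317 lower (2.80%), and these included Kit (DESeq2 adjusted p 0.000142), Ifitm3 (0.0425) and Tfap2c (0.0120). The calls for these 3 members depended on the tool. Both contrasts use the same KO libraries, so a member called in both, as Ifitm3 was, is not called on independent evidence.

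Over 1 day of wild-type development, with 1 library at each stage and no test, Prdm1 and Kit were higher at E8.5 past the threshold (12.2% of genes) and Prdm14, Tfap2c and Dnd1 were lower (7.82%). For Kit and Tfap2c the KO libraries lay on the same side of E7.5 WT as E8.5 WT did, whereas for Prdm1 they lay at the level of E7.5 WT. Ifitm1 and Ifitm3 differed between the stages by 0.52 and 0.50. Between KO2 and KO1 no member was past the threshold in either direction (5.99% of genes higher, 4.89% lower), the largest differences being -0.98 (-1.13 to -0.84) for Ifitm1 and 0.96 for Tfap2c.

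**Figure D3:**
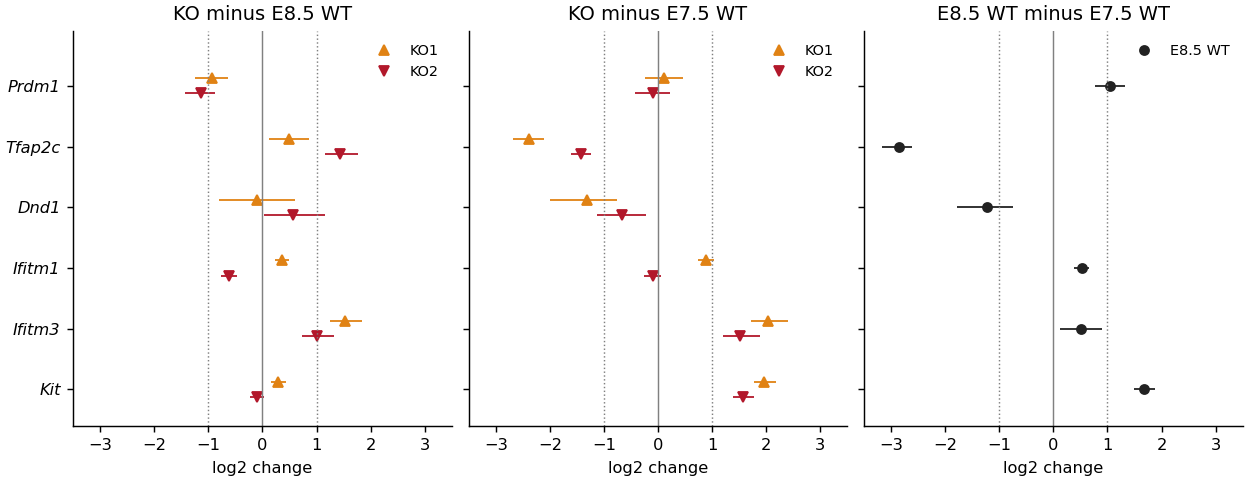
Log2 change of the 6 germ cell genes well above the floor in every library, in KO1 and KO2 against E8.5 WT, in both against E7.5 WT, and between the wild-type stages (E8.5 minus E7.5), with bars for the 95% interval of counting error and dotted lines at the thresholds of -1 and 1. Ifitm3 is past 1 in both KO libraries in both KO panels, Prdm1 is near -1 in both against E8.5 WT and near 0 against E7.5 WT, and the KO points of Ifitm1 lie on opposite sides of 0 against E8.5 WT.

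Levels of different genes were compared per length, as CPM divided by the exon length in kilobases (RPKM). Ifitm1 was the most abundant member in every library, at 52.6, 75.5, 97.4 and 49.3 RPKM. The second place was held by Tfap2c in E7.5 WT at 22.5 RPKM, and by Ifitm3 in the other libraries at 17.2 (E8.5 WT), 50.1 (KO1) and 35.0 RPKM (KO2). Kit came next in those libraries at 14.3, 17.5 and 13.3 RPKM, and its interval overlapped that of Ifitm3 in E8.5 WT alone. Tfap2c and Dnd1 could not be ordered in E8.5 WT (3.05 and 2.64 RPKM), nor Prdm1 and Dnd1 in KO1 (2.73 and 2.46 RPKM), since their intervals overlapped. Prdm14, Dppa3 and Nanos3 took the last places in all 4 libraries, at no more than 0.489 RPKM, with intervals that overlapped those of their neighbours among the 3.

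Genes of the signals that induce germ cells had reads in every library, which does not show that the signals were active. Of 11 such genes all passed the filter. Their median log2 difference from E8.5 WT was 0.30 for KO1 and 0.17 for KO2, beside -0.0083 and -0.0013 over all genes. Bmp4, the ligand that starts the program, had 472, 501, 545 and 383 reads, with KO1 and KO2 the furthest apart in CPM, at 2.06-fold. Bmp8b, its partner from extraembryonic ectoderm, had 340, 5, 7 and 45 reads and was highest in E7.5 WT. Wnt3, which makes epiblast competent, had 124, 46, 88 and 325 reads. It was the 1 gene of the list to exceed E8.5 WT past the threshold in both KO libraries, by 2.8-fold and 7.13-fold. No gene of the list was lower, beside shares of 3.44% higher and 1.79% lower over all genes. Against E7.5 WT the receptor gene Bmpr2 was higher in both (6.91% of all genes). Bmp8b and T, the Brachyury factor downstream of Wnt3, were lower (2.70%). E8.5 WT differed from E7.5 WT in the same directions, with log2 changes of 1.86 for Bmpr2, -5.62 for Bmp8b and -2.09 for T. T had 3864, 934, 829 and 1485 reads.

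Of 17 other genes of early germ cells 16 passed the filter. Many of them belong to pluripotent epiblast too. Nanog, a pluripotency factor that germ cells keep, had 278, 91, 197 and 882 reads, and Rhox6, a homeobox gene of placenta and germ cells, had 90, 9, 54 and 376. Both exceeded E8.5 WT past the threshold in KO1 and in KO2 (3.44% of all genes tested), and none of the 16 was lower (1.79%). KO2 exceeded KO1 for both, by 3.08-fold for Nanog. Pou5f1 (Oct4), with 3790, 693, 867 and 4085 reads, was as high in KO2 as in E7.5 WT and was 1.83-fold above E8.5 WT in KO1. Alpl, the alkaline phosphatase by which founder cells are stained, had 406, 513, 589 and 564 reads. Against E7.5 WT, no gene of the list passed the threshold in KO1 and KO2 alike (6.91% of all genes higher, 2.70% lower). The list's median log2 difference from E8.5 WT was 0.08 for KO1 and 0.49 for KO2, beside -0.0083 and -0.0013 over all genes.

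Germ cell specification is known to shut down the somatic Hox program and the de novo DNA methyltransferases, and 8 genes of that kind were read as a group. Against E8.5 WT, KO1 and KO2 were not both past the threshold for any of them (3.44% of all genes higher, 1.79% lower). Dnmt3b, a de novo methyltransferase of epiblast, had 18206, 5529, 4802 and 28440 reads, with KO2 above E7.5 WT and KO1 close to E8.5 WT. Hoxb1 had 493, 567, 552 and 60 reads and was lowest in KO2. Dnmt3l, a cofactor of de novo methylation, had 618, 5, 3 and 14 reads and was the 1 gene of the group lower past the threshold in both KO libraries than in E7.5 WT. The 5 markers of posterior mesoderm and allantois, the place where founder cells gather, summed to 42.0, 105, 56.4 and 9.52 CPM, and Tbx4, an allantois factor with 20, 799, 56 and 5 reads, was lower past the threshold in both KO libraries than at the same age in wild type. Hoxa13, with 4, 19, 3 and 5 reads, was so too, but it passed the filter through E8.5 WT alone, the library it was compared with. Of 15 paralogs of the members 9 passed the filter and none was called against E8.5 WT, while Tfap2a was higher in both than in E7.5 WT. Ifitm10 (0, 4, 5 and 15 reads) and Tfap2b (0, 12, 4 and 3 reads) were past that threshold too, on few reads against 0, and each passed the filter through 1 library alone. With the narrow markers at the floor, none of these broadly expressed genes could be assigned to germ cells in whole embryos.

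DDX6 acts with miRNAs, so the 3′ UTRs of the members were searched for seed matches of 2 miRNA families known in early embryos. The let-7 family rises as cells differentiate, and miR-294 belongs to the family that dominates pluripotent cells. Their mature sequences (RefSeq, GRCm38.p6) are shown with the seed, bases 2 to 8, in capitals, since the seed sets the letters that were searched.
mmu-let-7a-5p: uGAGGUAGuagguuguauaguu
mmu-miR-294-3p: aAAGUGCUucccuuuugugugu
mmu-let-7a-5p lies at chr13:48538239-48538260 on the minus strand and mmu-miR-294-3p at chr7:3220691-3220712 on the plus strand. The matches sought, on the transcript's strand, were CTACCTC and AGCACTT. None of the 9 members had either, beside 9.24% and 15.0% of the 19498 genes of the table with an annotated 3′ UTR. For Prdm1, whose 3′ UTR of 2490 bases is the longest of the members, 14.4% and 26.2% of genes of like length had a match. For Ifitm3, whose 3′ UTR of 139 bases is the shortest, the shares were 0.77% and 1.21%. Most genes with 3′ UTRs of these lengths thus had no match either.

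A second kind of match, to bases 2 to 7 followed by an A in the transcript, was added after the first gave none. The let-7a form TACCTCA occurred once, in Prdm1, beside 17.1% of 2457 genes with a 3′ UTR of like length, and the miR-294 form GCACTTA occurred in no member. The Prdm1 site is shown with its match in capitals (chr10:44438369-44438398, minus strand, GRCm38, 3′ UTR), since Prdm1 has been reported elsewhere as a let-7 target.
Prdm1: aaaagtgttcaacaatTACCTCAttgagtg
KO levels of Prdm1 were under those of E8.5 WT, as given above, and a seed match does not show that a miRNA acted on it.

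The remaining members were also set beside the genes most like them in pattern, among 11222 genes with a mean of at least 50 reads. For Ifitm3 these were Gpx7 (distance 0.104), Cadps (0.244) and Mmp14 (0.301), of which Gpx7 had 75, 116, 245 and 239 reads. For Ifitm1 they were Notch1 (0.109), Tspan9 (0.123) and Smad3 (0.132), for Dnd1 Blvra (0.0816), Zbtb7b (0.134) and Acot7 (0.147), and for Prdm14, at its few reads, Dgat2 (0.0437), Rbm38 (0.0737) and Cisd3 (0.106). With 4 libraries many genes share a pattern, and likeness here says nothing about shared function.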

How the data were processed

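Whole mouse embryos were profiled by stranded mRNA sequencing in 4 libraries, grouped by their labels. The authors deposited raw counts per gene. Per the authors' methods and processing notes, reads were trimmed with Cutadapt 2.8, checked with FastQC 0.11.7, aligned to mm10 with HISAT2 2.1.0, sorted with SAMtools 1.9 and counted over exons by strand with featureCounts 2.0.0. Total counts were 12095555 for E7.5 WT, 8198402 for KO1, 12008252 for KO2 and 12562640 for E8.5 WT.

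Counts were scaled by TMM in edgeR 4.0.16 (R 4.3.3), with factors of 0.978 to 1.02. A gene was kept if 1 library or more held 10 counts of it (14393 genes). Calls needed a log2 CPM difference above 1 or below -1, the criterion of the study's methods, in both KO libraries. With a single library per WT stage these calls have no p-value. Two-sided edgeR quasi-likelihood tests on 3 groups took the spread from the KO libraries, with adjustment over all genes kept, and DESeq2 1.42.0 was the alternative. Clopper-Pearson and Poisson intervals at 95% and the floor of 3 counts describe counting error and nothing else, because PCR copies cannot be told from separate molecules.

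RPKM used exon lengths of GENCODE M21 (GRCm38, the assembly of mm10), where 23334 of 24421 genes (95.5%) were matched by symbol. Pattern distance was Euclidean, in log2 CPM centred on each gene's mean. The genes named are the 9 members, list genes past the threshold or tied to a member by role, and the 3 nearest genes to each member kept. Examples from lists that did not pass were picked for their known role, some after their values were seen, and values of some single genes are not reported here. The members and 14 other lists were chosen with earlier results of these data known. The code was tested on simulated data. Alternatives were other scalings, filters, prior count, threshold, test and libraries left out. Figures used matplotlib 3.10.9.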

Additional observations from a re-analysis of the deposited data

How the results depend on the processing

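Of 70 recalculations of a count of members or of their order, 59 left it within 1.5 times its value. With a threshold of 2, 0 members were higher against E8.5 WT, 0 higher and 0 lower against E7.5 WT, and 0 higher and 1 lower in E8.5 WT against E7.5 WT. A minimum of 50 counts left 1 member lower against E7.5 WT, since Prdm14 no longer entered. Without 1 KO library, the members called against E8.5 WT ranged from 1 to 2 higher (2 without KO1) and from 0 to 1 lower (1 without KO1). Against E7.5 WT the members lower ranged from 2 to 3 (3 without KO2), and those higher stayed at 2. The number of members under an edgeR adjusted p of 0.05 against E7.5 WT went from 0 to 3 without the filter on low counts, with adjusted p-values of 0.0439 for Tfap2c, 0.0416 for Ifitm3 and 0.0213 for Kit, and to 3 with the DESeq2 test. The fitted log2 change of Prdm1 against E7.5 WT, 0.01 in edgeR, was -0.0243 with DESeq2 size factors and -0.0239 with the DESeq2 test (adjusted p 0.964 and 0.996). Counting the shorter seed match, added after the data were seen, gave 1 member with a let-7a match in place of 0. Among single genes and counts over all genes, 229 of 261 recalculations kept their value or call. The counts over all genes that moved by over 1.5 times included, with a minimum of 50 counts, 259 higher and 130 lower against E8.5 WT and 246 lower against E7.5 WT, 693 lower in E8.5 WT against E7.5 WT, and 454 higher and 435 lower in KO2 against KO1. With a threshold of 2 they were 54 and 51 against E8.5 WT, 132 and 59 against E7.5 WT, 503 and 290 between the WT stages, and 260 and 187 between the KO libraries. Without 1 KO library, calls over all genes against E8.5 WT ranged from 716 to 1354 higher and 476 to 850 lower, and against E7.5 WT from 1564 to 1893 higher and 584 to 1072 lower. The log2 change of Prdm14 against E7.5 WT was -1.28, and -1.63 with a prior count of 0.5. No paired analysis was possible because each WT stage held 1 library and no label links it to a KO library. With 1 KO library left out, edgeR has no residual degrees of freedom, so that fit gave values and no test. Depth limits Prdm14, Dppa3 and Nanos3, for which no change between KO and E8.5 WT could be measured.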
